A study of Homo sapiens with 4 samples.

Results

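The S100 genes encode small calcium-binding proteins, and 10 of them (S100A2, S100A4, S100A6, S100A8, S100A9, S100A10, S100A11, S100A14, S100A16 and S100P) were followed here. Members were all non-control probes whose gene name on the array equals one of these symbols, which gave 11 probes of 34127 and 10 gene names of 25992. The series has 4 arrays of human proximal tubular cells (HPTCs), of which 2 carry the label HK-2 and 2 the label RPTEC/TERT1. The HK-2 line was immortalised with papillomavirus oncogenes and the RPTEC/TERT1 line with telomerase. Both lines were kept at normal glucose and starved of serum and supplements for 24 h. They then received IL-1β (10 ng/mL) together with empagliflozin (Empa, 500 nM), an inhibitor of the glucose transporter SGLT2, for 24 h. All 4 arrays thus share the stimulation and the starvation, unstimulated arrays and arrays of IL-1β or Empa alone were not analysed here, and the only comparison the labels allow is between the cell lines. There are n = 2 biological replicates of each line, called its first and second array below after the replicate numbers in the labels.

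S100 proteins have a pair of EF-hand calcium-binding loops, mostly act as dimers, and on binding calcium expose a surface that docks onto target proteins such as annexins and myosin. S100A10 is the exception that no longer binds calcium and stays attached to annexin A2 at the membrane. Some members are also released and act on other cells through cell-surface receptors such as AGER (RAGE), TLR4 and MCAM. S100A8 and S100A9 together form calprotectin of neutrophils and monocytes, and S100A4 is known from fibroblasts and from epithelial cells that lose their epithelial character.

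A level is the log2 ratio of the processed spot signal to the 75th percentile of the spots of that array, so that 0 is the brightness of that percentile. The 75th percentile lay between 393 and 748 signal units, and 59.2% to 64.9% of spots were marked by the scanner software as well above background. Levels were floored at -5.37, the highest over the arrays of the weakest scaled signal that still counted as well above background. Repeated spots of a probe had a median SD of 0.082 to 0.14 within an array. The first arrays of both lines carried the same scan date and the second arrays shared another, so scan date and replicate number cannot be told apart. Arrays did not group by their labels. Across the 16468 genes tested, Pearson's r was 0.847 for the pair of HK-2 arrays and 0.833 for the pair of RPTEC/TERT1 arrays, but 0.983 between the first HK-2 array and the second RPTEC/TERT1 array and 0.975 between the second HK-2 array and the first RPTEC/TERT1 array. Genes are not independent replicates, and these values describe the arrays only. Cell lines are therefore named below only as the labels give them, and every difference between them rests on arrays that resemble an array of the other label. Whether 2 of the labels were exchanged was not tested, and an exchange would change what each difference between HK-2 and RPTEC/TERT1, and each count of calls, stands for.

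Several of the probes that read S100 transcripts are shown because the results turn on them. The probe of S100A6 (A_23_P201711, chr1:153507255-153507685 of GRCh37) and that of S100A9 (A_23_P23048, chr1:153330874-153333143) cover 431 and 2270 bases of the genome with 60 bases of sequence, so each crosses at least 1 intron and reads spliced RNA. S100A11 has 2 probes that share 1 base, A_23_P145863 (chr1:152005160-152005219) and A_23_P126593 (chr1:152005219-152005278), of which the latter is printed. They are written 5′ to 3′ with no part in capitals, and 51.7%, 38.3% and 45.0% of their bases are G or C, in the order shown.
S100A6: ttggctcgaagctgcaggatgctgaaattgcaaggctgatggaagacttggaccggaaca
S100A9: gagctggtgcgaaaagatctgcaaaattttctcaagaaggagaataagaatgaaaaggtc
S100A11: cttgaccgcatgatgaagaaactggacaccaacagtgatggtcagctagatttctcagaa

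Promoter sequences, the 250 bases before a transcript's start as RefSeq gives them on GRCh38.p14, are shown for S100A4 and S100A9, the members whose levels varied most between arrays, and for S100A2, the only tested member that varied in the opposite sense. Capitals mark a TATA box (TATAAA) in S100A4 and S100A9 and the AP-1 motif TGANTCA, found as TGACTCA, in S100A2. S100A4 lies on the minus strand (chr1:153545807-153546056), S100A9 on the plus strand (chr1:153357604-153357853) and S100A2 on the minus strand (chr1:153565845-153566094, the promoter of 1 of its starts).
S100A4: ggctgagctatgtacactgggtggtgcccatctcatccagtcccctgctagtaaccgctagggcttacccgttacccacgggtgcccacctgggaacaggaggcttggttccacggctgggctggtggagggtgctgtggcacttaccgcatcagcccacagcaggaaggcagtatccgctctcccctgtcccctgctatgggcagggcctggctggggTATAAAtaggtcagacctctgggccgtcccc
S100A9: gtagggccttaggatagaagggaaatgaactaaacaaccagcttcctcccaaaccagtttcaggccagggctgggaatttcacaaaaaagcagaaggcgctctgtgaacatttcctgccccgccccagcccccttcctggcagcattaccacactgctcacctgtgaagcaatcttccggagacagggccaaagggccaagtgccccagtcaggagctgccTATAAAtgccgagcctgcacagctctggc
S100A2: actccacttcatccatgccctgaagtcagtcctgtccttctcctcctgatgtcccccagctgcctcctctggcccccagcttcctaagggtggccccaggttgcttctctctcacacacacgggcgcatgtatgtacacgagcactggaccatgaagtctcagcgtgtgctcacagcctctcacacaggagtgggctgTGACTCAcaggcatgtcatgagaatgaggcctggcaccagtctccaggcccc

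The TATA box ended 26 bases before the start in S100A4 and 24 bases before it in S100A9. Searched on both strands, TATAAA was in 5 of the 14 promoters of the members and in 10.7% of all 35116 promoters of this length. The 5 belong to 4 of the 10 genes (S100A4, S100A8, S100A9 and S100P). TGANTCA was in 1 of the 14, a promoter of S100A2, and in 6.57% of all promoters. The C/EBP motif TTGCNNCAA, in 1.62% of all promoters, was in none of the 14 member promoters. Different motifs did not overlap, and the TATAAA of S100A8 is 1 site that lies in the promoters of 2 of its starts. A match is a description of letters and not of binding.

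S100A4, which binds non-muscle myosin, varied most among the members. Its level (A_23_P94800, chr1:153516198-153516257) was -1.57 on the first HK-2 array, -4.54 on the second HK-2 array, -4.53 on the first RPTEC/TERT1 array and -1.13 on the second RPTEC/TERT1 array. The first HK-2 array and the second RPTEC/TERT1 array were high, the other two were low, and the cell lines overlapped. The processed signals behind these levels were 132, 32.1, 21.2 and 196 in the same order, all well above background. The first HK-2 array was 7.85-fold above the second HK-2 array, and the second RPTEC/TERT1 array was 10.6-fold above the first RPTEC/TERT1 array. The mean level was -3.06 ± 2.10 (SD, n = 2) for HK-2 and -2.83 ± 2.40 (SD, n = 2) for RPTEC/TERT1. The difference of -0.23 was smaller than the spread between replicates (95% interval -4.56 to 4.11, limma, Benjamini-Hochberg adjusted p = 1). In bulk RNA, fewer cells of a type and less RNA per cell cannot be told apart.

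S100A9, a subunit of calprotectin, was detected on the same arrays on which S100A4 was high. Its level was -2.49 on the first HK-2 array and -2.52 on the second RPTEC/TERT1 array. On the second HK-2 array and on the first RPTEC/TERT1 array its spot was not well above background and its level sat at the floor. The signals were 70.1, 3.32, 2.10 and 74.7 from the first HK-2 array to the second RPTEC/TERT1 array in the order used above, so each label had 1 array with the transcript and 1 without a detectable signal. Against the floor, HK-2 was at least 7.38-fold higher than RPTEC/TERT1 within replicate 1, and RPTEC/TERT1 was at least 7.21-fold higher than HK-2 within replicate 2, as bounds for this scale of the signal only. On the log2 scale these differences were 2.88 and -2.85, against 2.82 and -1.68 after normexp background correction and 2.07 and -1.60 in the deposited log2 values. The limma difference, 0.016 with floored values, had a 95% interval of -3.91 to 3.94 (Benjamini-Hochberg adjusted p = 1). S100A8, the other calprotectin subunit (A_23_P434809, chr1:153362548-153362607), was not well above background on any array, with signals of 2.37, 3.98, 5.26 and 10.5.

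S100A6 (calcyclin), a partner of CACYBP that is known from proliferating and regenerating epithelium, had levels of 7.27 on the first HK-2 array, 5.61 on the second HK-2 array, 5.84 on the first RPTEC/TERT1 array and 7.20 on the second RPTEC/TERT1 array. It was high on the same arrays as S100A4. Its spot was saturated on both of them, at signals of 60543 and 62996, which limits how high those levels could read. With the measured values, HK-2 was 2.69-fold higher within replicate 1 and RPTEC/TERT1 3.02-fold higher within replicate 2. The replicate 1 difference of 1.43 on the log2 scale was 0.83 after quantile normalization and 0.37 after normexp background correction, both under 2-fold. The limma difference was -0.083 (95% interval -2.37 to 2.20, Benjamini-Hochberg adjusted p = 1), with the saturated spots at their measured values.

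S100A11 (calgizzarin), a partner of annexin A1, had levels of 5.30, 3.35, 3.76 and 5.13 on the first HK-2 array, the second HK-2 array, the first RPTEC/TERT1 array and the second RPTEC/TERT1 array. The arrays ran in the same sense as for S100A6. Its probes gave 5.30, 3.24, 3.47 and 5.19 for A_23_P145863 and 5.30, 3.46, 4.05 and 5.07 for A_23_P126593, so both showed the same arrays high. HK-2 was 2.92-fold higher within replicate 1 (1.54 on the log2 scale, and 0.33 after normexp background correction) and RPTEC/TERT1 3.43-fold higher within replicate 2. The limma difference was -0.12 (95% interval -2.60 to 2.37, Benjamini-Hochberg adjusted p = 1).

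S100A10, the annexin A2 partner (A_23_P137984, chr1:151955420-151955479), varied least of the tested members. Its levels were 4.70, 3.75, 4.09 and 4.85 in the same order of arrays. The same arrays were high, and the cell lines overlapped. HK-2 was higher by 0.61 on the log2 scale within replicate 1, but after normexp background correction this difference turned to -0.38, and RPTEC/TERT1 was 2.15-fold higher within replicate 2. The latter difference, -1.11 on the log2 scale, was -0.79 after quantile normalization and -0.93 in the deposited log2 values, both under 2-fold. The limma difference was -0.25 (95% interval -1.85 to 1.35, Benjamini-Hochberg adjusted p = 1).

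S100A2, a nuclear S100 protein that binds p53 and is best known from keratinocytes, ran in the opposite sense. Its levels (A_33_P3376249, chr1:153533831-153533890) were 1.02 on the first HK-2 array, 2.21 on the second HK-2 array, 1.75 on the first RPTEC/TERT1 array and 1.32 on the second RPTEC/TERT1 array. Here the second HK-2 array and the first RPTEC/TERT1 array were the higher arrays, and both RPTEC/TERT1 arrays lay between the HK-2 arrays. RPTEC/TERT1 was 1.66-fold higher within replicate 1 (-0.73 on the log2 scale, and -1.36, past 2-fold, after normexp background correction) and HK-2 was 1.86-fold higher within replicate 2. The mean was 1.62 ± 0.84 (SD, n = 2) for HK-2 and 1.53 ± 0.31 (SD, n = 2) for RPTEC/TERT1, a difference of 0.081 (95% interval -1.55 to 1.71, limma, Benjamini-Hochberg adjusted p = 1).

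S100A16, a widely expressed S100 protein (A_23_P147918, chr1:153579675-153579734), was left out of the test because the scanner software had called its single spot an outlier on 3 of the 4 arrays. The array with an accepted spot, the second HK-2 array, gave 2.51. With the outlier spots kept, its levels were 4.28, 2.51, 3.07 and 4.12, with the same arrays high as for S100A11. That setting gave a limma difference of -0.20 (standard error 0.82, Benjamini-Hochberg adjusted p = 1). S100A14 (A_23_P124619, chr1:153587006-153587065) and S100P, which lies apart from the others on chromosome 4 (A_23_P58266, chr4:6698819-6698878), were not well above background on any array. Their levels lay between -5.37 and -5.04 for S100A14 and between -5.37 and -4.36 for S100P.

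**Figure D1:**
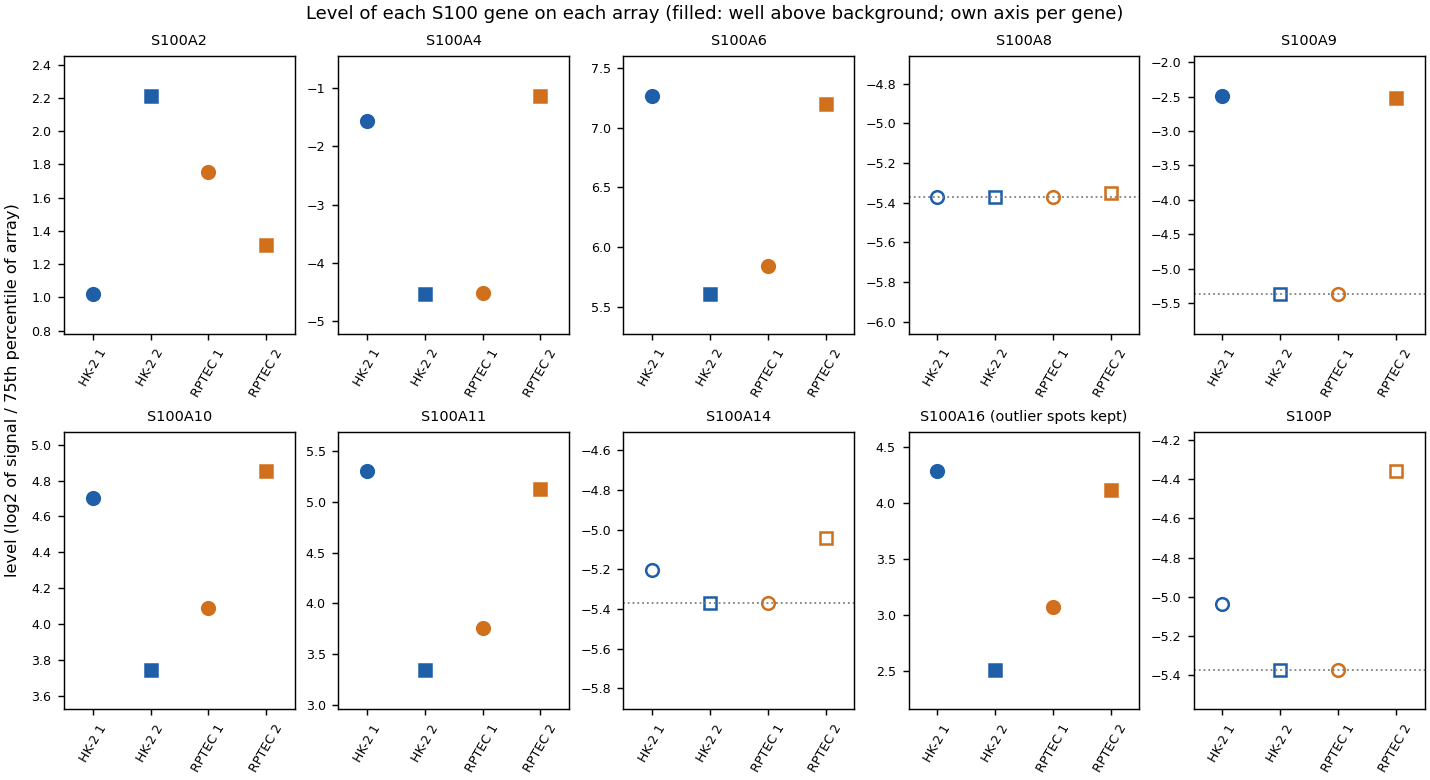
Level of each of the 10 S100 genes (y axis, log2 of the signal over the 75th percentile of the array, with a separate axis for each gene) on the 4 arrays (x axis, blue HK-2, orange RPTEC/TERT1, circles replicate 1, squares replicate 2). Filled points are well above background, open points are not, the dotted line is the floor at -5.37, and S100A16 is shown with its outlier spots kept. S100A4, S100A6, S100A9, S100A10 and S100A11 are high on the first HK-2 array and the second RPTEC/TERT1 array, S100A2 is low there, and the 2 high points of S100A6 are saturated spots.

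Of the 10 members, 6 passed the filter of being well above background on at least 2 arrays with a value on all 4, and 4 did not. Of these 6, 0 differed between the labelled cell lines at an adjusted p under 0.05 in limma, and 0 at an unadjusted p under 0.05. Over all 16468 genes tested the shares were 0% and 0.14%. The arrays of the cell lines were separate for 0 of the 6 members and for 7.17% of all genes tested. The narrowest interval, that of S100A10, still reached -1.85 and 1.35 on the log2 scale, and the widest, that of S100A4, reached -4.56 and 4.11. Differences of these genes within their intervals were thus not excluded with 2 arrays a line.

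**Figure D2:**
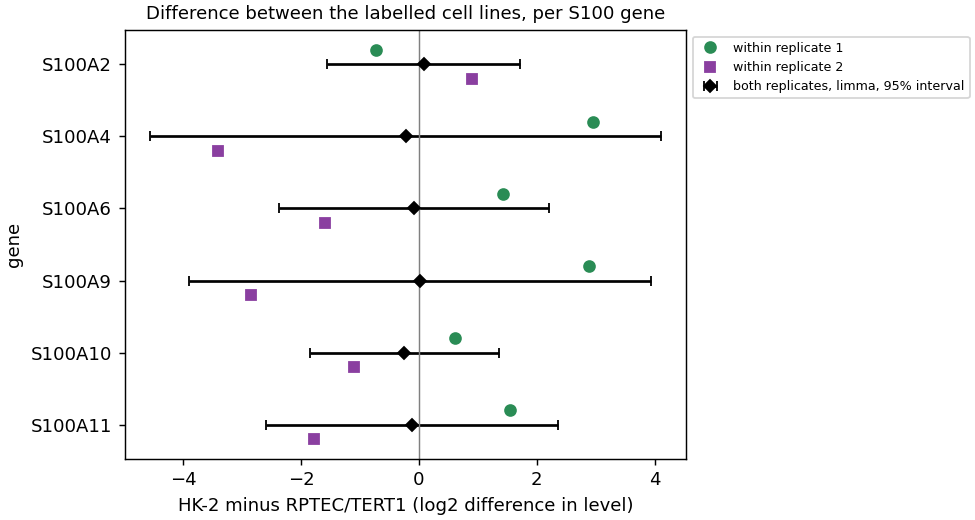
HK-2 minus RPTEC/TERT1 (x axis, log2 difference in level) for the 6 tested S100 genes (y axis). Black diamonds and bars are the limma difference over both replicates with its 95% interval, green circles the difference within replicate 1 and purple squares that within replicate 2. Each interval spans 0, and the 2 replicates lie on opposite sides of 0 for every gene.

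The sign of the difference turned between replicates for each of the 6 members, except for S100A10 after normexp background correction. The share of all genes tested with such a turn was not counted. Across all genes tested, arrays of the same replicate number deviated from their label's mean with a correlation of -0.810. The turn is thus not shown to be particular to the members. Within replicate 1, 4 of the 6 differed by more than 2-fold (S100A4, S100A6, S100A9 and S100A11, all higher on the array labelled HK-2), against 36% of all genes tested in either direction and 19.6% in that direction. After normexp background correction 2 were past 2-fold in that direction (S100A4 and S100A9) and 1 in the other (S100A2), and after quantile normalization 3 were (S100A4, S100A9 and S100A11) and 0. Within replicate 2, 5 of the 6 did (the same 4 and S100A10, all higher on the array labelled RPTEC/TERT1), against 33.7% of all genes tested in either direction and 17.8% in that direction. S100A10 was no longer among them after quantile normalization or in the deposited log2 values. These are differences of 1 array against 1 array and have no replicate check.

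Arrays of the same label differed as much. Between the HK-2 arrays, 5 of the 6 members were past 2-fold (34% of all genes tested), and the median absolute difference over the members was 1.81, against 0.67 over all genes tested. Between the RPTEC/TERT1 arrays, 4 of the 6 were past 2-fold (40.4% of all genes tested), with medians of 1.37 and 0.79. Between the first HK-2 array and the second RPTEC/TERT1 array, 0 of the 6 were past 2-fold (4.9% of all genes tested), with medians of 0.16 and 0.22. Between the second HK-2 array and the first RPTEC/TERT1 array it was 0 of the 6 (6.78%), with medians of 0.29 and 0.30. The members thus differed little where all genes differed little. Over the 4 arrays the range of a member had a median of 1.81, against 1.05 over all genes tested. The range of S100A4, 3.41, was wider than that of 94.1% of genes tested, that of S100A9, 2.88 from the floor, wider than 91.5%, and that of S100A10, 1.11, wider than 53.0%.

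**Figure D3:**
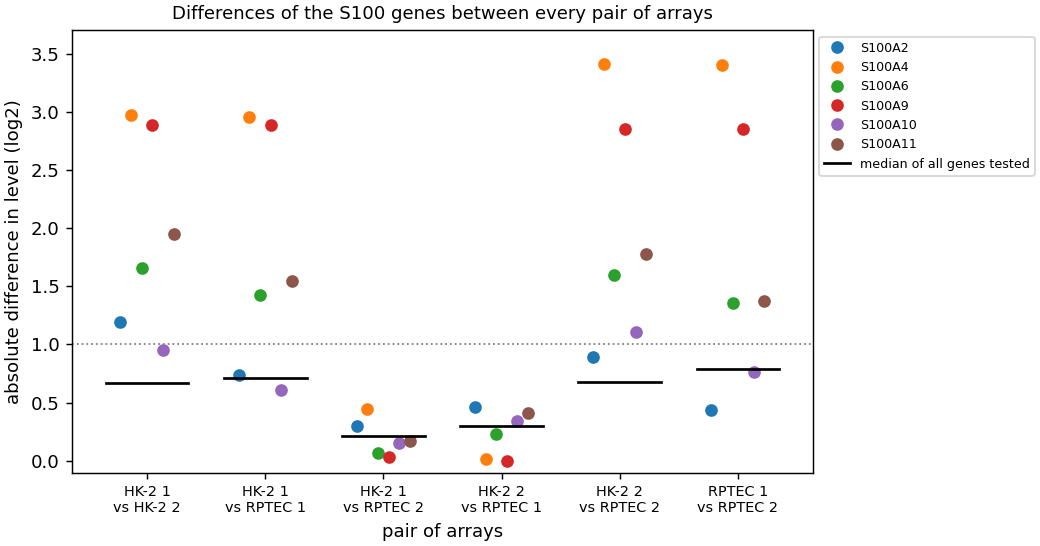
Absolute difference in level (y axis, log2) of the 6 tested S100 genes (coloured points) for each of the 6 pairs of arrays (x axis). Black lines are the median over all 16468 genes tested, and the dotted line is a 2-fold difference. The points lie below 0.5 for the first HK-2 array against the second RPTEC/TERT1 array and for the second HK-2 array against the first RPTEC/TERT1 array, and reach 3.41 for the other pairs.

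Most S100 genes lie together on chromosome 1. By the positions of their probes, 17 S100 genes on the array, 9 of them members, lie there from 151955420 to 153604335 on GRCh37. S100A10 and S100A11 stand 49.7 kb apart at one end and 1326 kb before the rest. S100A5, S100A4 and S100A3 follow each other, 3.61 and 3.80 kb apart by probe start. Their levels did not run alike on all arrays. S100A3 had levels of 0.12, -1.41, -0.88 and 0.090 on the first HK-2 array, the second HK-2 array, the first RPTEC/TERT1 array and the second RPTEC/TERT1 array, with the same arrays high as for S100A4. S100A5, known from olfactory neurons, had 0.14, -2.42, -2.12 and -1.93, and was thus high on the first HK-2 array alone. S100A2, the next S100 gene, 13.8 kb from S100A3, ran in the opposite sense to S100A4. From S100A12 to S100A7, 5 consecutive genes with S100A8 among them were not well above background on any array.

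**Figure D4:**
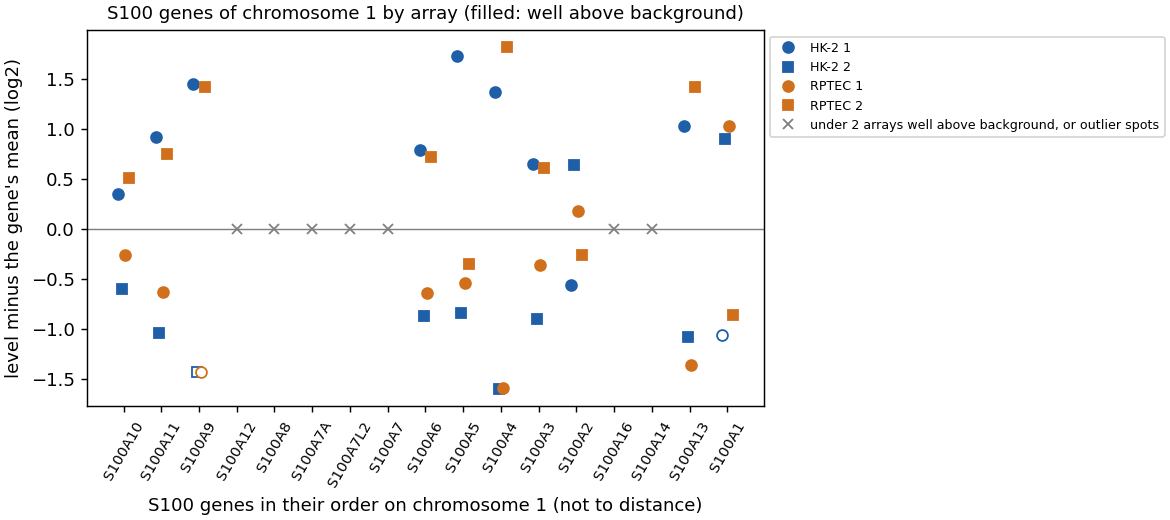
Level minus the mean of the gene over the 4 arrays (y axis, log2) for 17 S100 genes in their order on chromosome 1 (x axis, not to distance). Blue points are HK-2, orange points RPTEC/TERT1, circles replicate 1 and squares replicate 2, open where not well above background, and grey crosses are genes with under 2 arrays well above background or, for S100A16, with outlier spots. S100A2 and S100A1, the latter as the mean of probes that differ, run in the opposite sense to most of the others, and S100A5 is high on 1 array.

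Of 11 other S100 genes on the array, 7 (S100A7, S100A7A, S100A7L2, S100A12, S100B, S100G and S100Z) were not well above background on any array. Of the 4 tested, 0 were called between the cell lines, against 0% of all genes tested. S100A13, which takes part in the release of FGF1, had levels of 5.27, 3.16, 2.88 and 5.65, high on the same arrays as S100A4. S100A1, known from heart and skeletal muscle, was read by 2 probes that differed in the size of the change. Its probe A_23_P383227 stood at -2.05 on the second HK-2 array and -1.66 on the first RPTEC/TERT1 array. It was not well above background on the other arrays. Its probe A_33_P3409086 had -4.40 and -3.81 on the first and second HK-2 arrays, and -3.93 and -4.01 on the first and second RPTEC/TERT1 arrays. The latter probe thus hardly differed between the RPTEC/TERT1 arrays.

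Among 12 known binding partners of S100 proteins, all were well above background on all 4 arrays. In limma, 0 were called between the cell lines, against 0 of all 16468 genes tested. ANXA1, the phospholipid-binding partner of S100A11, had the widest range of the lists of partners, receptors and other S100 genes. Its levels were 5.38, 0.75, 0.36 and 5.32, so that it was high on the same arrays as S100A11. AHNAK, a large scaffold that binds the S100A10 and annexin A2 complex, had 0.72, -0.99, -0.70 and 0.79, again in that sense. ANXA2, shown as the partner of S100A10 and chosen after its values were seen, had 5.27, 4.05, 4.06 and 5.19. ANXA2 and S100A10 were thus high on the same arrays, with ranges of 1.22 and 1.11. The partners did not all run this way. Of the 12, 5 were higher on HK-2 within replicate 1 and lower within replicate 2, as S100A4 was, and 7 were the reverse. Past 2-fold in both replicates were 3 of the former (ANXA1, ANXA2 and AHNAK) and 2 of the latter (CACYBP and ANXA6). Gene levels are means over probes. The probes A_23_P426636 and A_24_P943393 of AHNAK and A_32_P148345 of ANXA2 were not past 2-fold in both replicates. The shares of all genes tested in each sense were not counted. CACYBP, the calcyclin-binding partner of S100A6, had -1.67, -0.11, -0.29 and -1.55, and was low where S100A6 was high. ANXA6, another annexin, had -1.74, -0.32, -0.066 and -1.56, in the same sense as CACYBP.

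Of 7 known S100 receptors and binding proteins of the cell surface, 4 were tested and 0 called, against 0% of all genes tested. TLR4 and CD36 were not well above background on any array. AGER, the receptor of S100A4 and S100P among others, was read by probes that disagree. Its probe A_23_P93360 was well above background on all 4 arrays with levels between -1.85 and -1.51. Its probes A_33_P3396010 and A_33_P3396008 were not well above background on any array. MCAM, an adhesion molecule that binds calprotectin, had levels of -1.89, 2.47, 2.29 and -1.62. It was low where S100A9 was detected and high where S100A9 was at the floor. Of all genes tested, 36% within replicate 1 and 33.7% within replicate 2 were past 2-fold in either direction. SDC1, a heparan sulfate proteoglycan of epithelia, had 0.62, 3.36, 3.54 and 0.78, in the same sense as MCAM. ALCAM, an adhesion molecule related to MCAM, ran the other way, with 1.91, 1.42, 1.08 and 2.20.

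**Figure D5:**
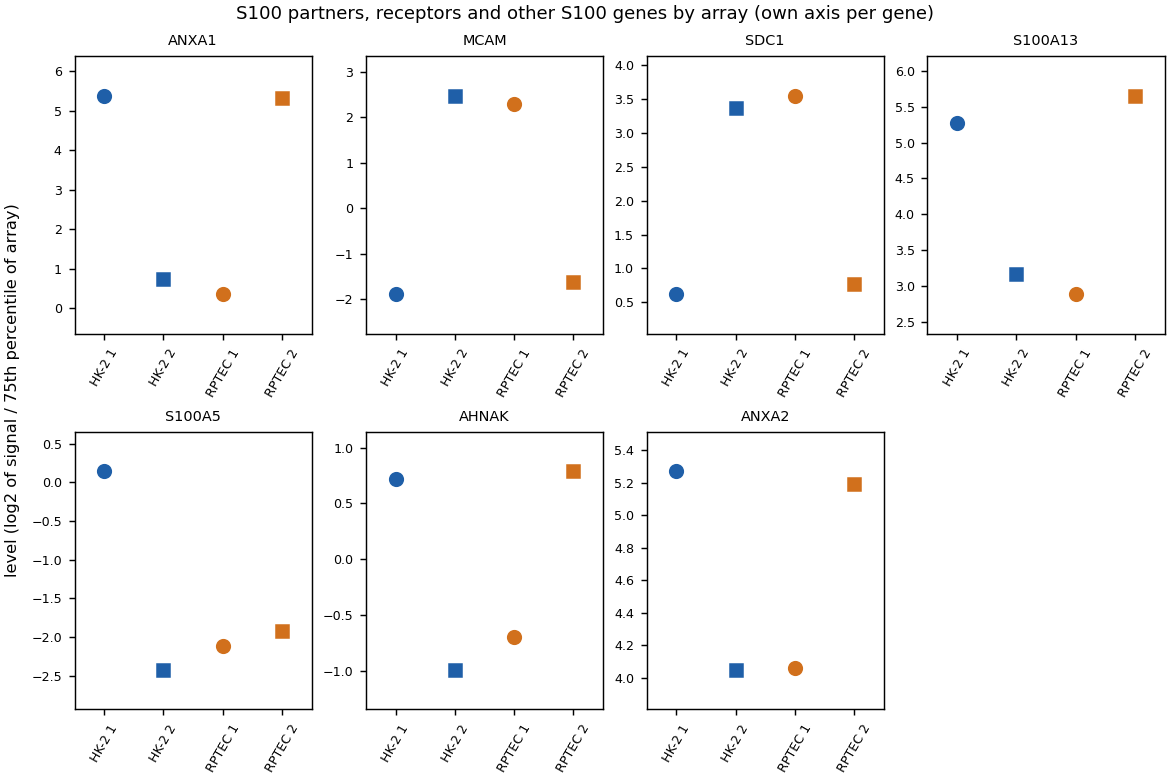
Level (y axis, log2 of the signal over the 75th percentile of the array, with a separate axis for each gene) of partners, receptors and other S100 genes on the 4 arrays (x axis, blue HK-2, orange RPTEC/TERT1, circles replicate 1, squares replicate 2). ANXA1, S100A13, AHNAK and ANXA2 are high and MCAM and SDC1 low on the first HK-2 array and the second RPTEC/TERT1 array, and S100A5 is high on the first HK-2 array alone.

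The genes whose pattern over the 4 arrays was most like that of a member were sought among the genes tested that were well above background on every array, 13778 in all, by the root mean square difference of levels after the mean of each gene was taken off. For S100A4 they were HCP5 (0.043), HOXC8 (0.072) and BMF (0.076). For S100A9 they were CAMK1D (0.015), SOCS1 (0.056) and BAG1 (0.058), with S100A9 at its floor on 2 arrays. For S100A11 they were KCTD11 (0.029), NADSYN1 (0.031) and LEPR (0.039). These are likenesses over 4 arrays that fall into 2 like pairs.

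Markers of cell types moved with the same arrays. Of 13 proximal tubule markers, 6 were well above background on all 4 arrays and CUBN, ALPL, HNF4A and SLC22A6 on none. Their summed signal, in units of the 75th percentile, was 9.41 and 8.14 on the first HK-2 array and the second RPTEC/TERT1 array, where S100A4, S100A6, S100A9 and S100A11 were high, and 3.71 and 3.85 on the second HK-2 array and the first RPTEC/TERT1 array. The peptidases DPP4 and ANPEP carried this, with 8.31 and 6.85 against 2.26 and 2.51, and the other 11 summed to 1.10 and 1.30 against 1.44 and 1.35. LRP2, the endocytic receptor megalin, had -3.34, -1.72, -2.77 and -3.06 in the usual order of arrays, lowest on the arrays where S100A4 was high. For 7 markers of kidney epithelium, of which 5 were well above background on all 4 arrays, the sums were 109 and 117 against 39.8 and 42.1, and PAX2 and CDH1 were not well above background on the latter arrays. For 8 fibroblast markers the sums ran the other way, 0.211 and 0.202 where S100A4 was high against 1.99 and 1.53 where it was low. DCN and LUM carried this, with levels of -0.61 and -0.87 for DCN and 0.23 and -0.30 for LUM where S100A4 was low. Neither was well above background where S100A4 was high. COL1A1 lay between -5.13 and -4.27, and COL1A2, COL3A1, PDGFRB, PDGFRA and THY1 were not well above background on any array. For the 8 of 10 myeloid markers found on the array, of which 5 were well above background on all 4 arrays and MPO on none, the sums were 1.53 and 1.79 where S100A9 was detected and 2.17 and 2.47 where it was not. CD68 and CSF1R carried the difference, with 0.735 and 0.713 against 1.35 and 1.78, and the other 6 summed to 0.798 and 1.08 against 0.829 and 0.696. CSF3R, the receptor of granulocyte colony-stimulating factor, had -1.87, -1.90, -2.95 and -0.72. Within each replicate it was higher on the array with S100A9, but it hardly differed between the HK-2 arrays. CD14, of the same list, ran the other way, with -3.25, -2.33, -2.45 and -3.17. Of 9 squamous markers, 7 were not well above background on any array, KRT5, KRT14 and TP63 among them. The sums lay between 0.261 and 0.561, highest on the first HK-2 array. On that array alone DSG3 was well above background, at -1.77. The part of these differences in the levels of the S100 genes was not tested.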

How the data were processed

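The authors hybridised RNA of the stimulated HPTCs to Agilent Human GE 4x44K v2 arrays in 1 channel (Cy3), in biological duplicates. The kit for RNA extraction is innuPREP in the methods and RNeasy in the labels. The authors deposited linear spot intensities made with Agilent Feature Extraction 9.5.3.1, background-subtracted and not scaled between arrays. They also deposited log2 values, with medians of 8.31, 7.04, 6.67 and 6.65 on HK-2 replicate 1, HK-2 replicate 2, RPTEC/TERT1 replicate 1 and RPTEC/TERT1 replicate 2, whose centring and scaling are not given in the sources used here. These run in the direction of the intensities (Spearman's rho with the net spot signal 0.999 on each array, across spots) and served as an alternative only. There were 0 columns of other samples.

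Groups and replicate numbers came from the sample labels. Control and outlier spots were left out, and each signal was scaled to the 75th percentile of the spots of that array, floored at 0.0242 of it and taken to log2. Gene levels are means over probes well above background on at least 1 array with a value on all 4, otherwise over all probes of the gene. The cell lines were compared in limma 3.58.1 (R 4.3.3, lmFit, eBayes, two-sided), using the 16468 genes that were well above background on 2 or more arrays, with Benjamini-Hochberg adjustment at 0.05. The code of this step was tested on simulated arrays that were independent and of small spread. That test does not show how limma performs on arrays that pair across the labels. Intervals come from the limma fit to the measured arrays.

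The genes named are the 10 members, the 6 genes of widest range among other S100 genes, partners and receptors well above background on all 4 arrays with a range above 1, and the 3 genes most like each of the 3 members of widest range. S100A1, S100A3, AGER, ALCAM, ANXA2, ANXA6 and CACYBP, and the markers, stand outside this rule and were named after their values were seen. Members and lists were chosen with earlier results of these data known. The transcripts of all 11 member probes are in the RefSeq table of GRCh38.p14 under the same symbol. Probe positions are those of the file headers' build, GRCh37, for which no annotation was at hand here.

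Alternatives were normexp correction (offset 50), quantile normalization, the deposited log2 values, no filter on dim probes or a filter on all 4 arrays, the brightest probe of a gene, outlier spots kept, the replicate number as a block, and each array left out in turn. Each array lay on its own slide, and a slide effect cannot be told apart from an array effect.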

Additional observations from a re-analysis of the deposited data

Results flagged for a closer look

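The change from replicate 1 to replicate 2 ran in opposite directions under the labels for several members, by more than 2-fold each way. The change on the arrays labelled HK-2 minus that on the arrays labelled RPTEC/TERT1 was -6.37 for S100A4, -3.02 for S100A6, -5.73 for S100A9 and -3.32 for S100A11 on the log2 scale. Each rests on 1 array per label and replicate, so the difference was not tested. The share of all genes tested with such opposite changes was not counted, so they are not shown to be particular to these members. The value of S100A6 includes 2 saturated spots and that of S100A9 floored values. After normexp correction the values were -4.62, -1.85, -4.49 and -2.05 in the same order, after quantile normalization -6.40, -1.92, -6.47 and -2.78, and in the deposited log2 values -3.90, -2.55, -3.67 and -2.72. Under normexp correction S100A6 and S100A11, and under quantile normalization S100A6, were no longer past 2-fold within replicate 1. Replicates of a label have no order, and the change is given only as the difference between them.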

How the results depend on the processing

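In limma, 0 S100 genes and 0 genes in all were called between the labelled cell lines under every alternative run, with 3 to 241 of all genes at an unadjusted p under 0.05 (23 as reported) and 0 of the members. The direction of the small differences depended on the setting. After normexp correction the difference was -0.22 for S100A2 (0.081 as reported) and 0.20 for S100A4 (-0.23), after quantile normalization it was -0.0045 for S100A9 (0.016), and in the deposited log2 values it was -0.017 for S100A2. Within replicate 1, normexp correction lowered the difference to -0.38 for S100A10 (0.61), to 0.37 for S100A6 (1.43) and to 0.33 for S100A11 (1.54), and took S100A2 to -1.36 (-0.73), whereas S100A4 and S100A9 stayed past 2-fold. For S100A4, the deposited log2 values gave 1.84 within replicate 1 (2.96) and -2.06 within replicate 2 (-3.41), and normexp correction -2.11 within replicate 2. No other alternative turned a difference within a replicate. The cause was not tested. With 1 array left out, the differences ran from -0.52 to 0.68 for S100A2, -1.93 to 1.47 for S100A4, -0.91 to 0.75 for S100A6, -1.43 to 1.46 for S100A9, -0.73 to 0.23 for S100A10 and -1.09 to 0.86 for S100A11, where the lone array of a label is assumed to vary like the others. Each array decides a direction: without HK-2 replicate 1 or RPTEC/TERT1 replicate 1 S100A9 was below 0, and without HK-2 replicate 2 or RPTEC/TERT1 replicate 2 the sign of the other 5 turned. The members past 2-fold, in both directions together, numbered 3 to 5 within replicate 1 and 4 to 6 within replicate 2, and the median range of the members tested was 1.19 to 1.81. S100A9 was not among the genes well above background on all 4 arrays, so that setting gave it no value.

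Arrays that share a replicate number deviated from their label's mean with a correlation of -0.810 across genes, so the numbers are not shown to pair the arrays. The replicate block left 0 genes called, with 5 at an unadjusted p under 0.05, and changed no call. A block that crosses the pairing, chosen after seeing the data, also left 0 called, with 183 at an unadjusted p under 0.05. Signal over background limits S100A8, S100A9, S100A14 and S100P, and saturation limits S100A6.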
